A study of Mus musculus with 6 samples.

Results

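G530011O06Rik, Dctn6, Met, Plppr1, Hip1r and Tril are 6 genes that were picked because the main probe set of each had a higher signal on every Phf8 knockout (KO) array than on every wild-type (WT) array of the hippocampus. They hold 14 of the 45037 probe sets on the array, and they are 6 of the 12903 genes that could be measured. The members were thus chosen by the comparison of KO with WT itself, so their difference between the genotypes is given as a description, without a test.

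Total RNA was taken from hippocampus of mice 10 weeks of age on a C57BL/6 strain background, with 3 Phf8 knockout and 3 wild type samples and 1 Affymetrix array per sample. The KO mice lack exons that encode the catalytic JmjC domain of PHF8, a histone demethylase encoded on the X chromosome. The floxed allele was made on a strain other than C57BL/6, deleted with EIIa-Cre, which acts in the early embryo and so in all tissues, and crossed to C57BL/6J for several generations. The animals were hemizygous males and their wild-type littermates. The methods can be read as 1 mouse or several mice per array, so p-values here measure only the spread between these samples. All signals below are log2 MAS5 signals, the intensity summary of 1 probe set, in which 1 unit is a doubling. A probe set was kept when its signal lay above the 40th percentile of its array on at least 3 arrays, a filter level of 5.73 to 6.05. The main probe set of a gene is its brightest kept one.

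The 6 genes do not form a pathway. Dctn6 encodes a subunit of dynactin, the complex that lets the dynein motor carry cargo along microtubules. Hip1r encodes an adaptor that links clathrin-coated pits to actin. Met is the receptor tyrosine kinase for hepatocyte growth factor (HGF), and in the developing forebrain it is found on projection neurons. Plppr1 belongs to a family of neuronal membrane proteins related to lipid phosphate phosphatases and known for effects on filopodia and neurite growth. Tril encodes a membrane protein with leucine-rich repeats that interacts with the Toll-like receptor TLR4 and is expressed in astrocytes. G530011O06Rik is annotated as a long noncoding RNA. PHF8 itself binds trimethylated lysine 4 of histone H3, a mark of active and often CpG-rich promoters, and removes methyl groups from other histone lysines.

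Phf8 was lower on all KO arrays on its bright probe set. That probe set had signals of 8.23, 8.55 and 7.99 in the KO samples, against 9.90, 9.66 and 9.73 in the WT samples. The other Phf8 probe sets did not pass the filter and differed by -0.06 and 0.32, with overlapping groups. KO replicate 3 stood apart. Its correlation with the other arrays over genes was 0.925 to 0.940, while the other 5 arrays correlated at 0.976 to 0.987 among themselves. Of 12 marker genes of the thalamus, 10 were measured, and their median deviation from the WT mean was 2.52 in KO replicate 3, 0.29 and 0.18 in KO replicates 1 and 2, and -0.11 to 0.07 in the WT samples. Their summed linear signal was 7086 to 36550 in KO and 5320 to 5881 in WT. All 9 markers of dentate gyrus granule cells and 5 of 7 markers of CA1 pyramidal cells were measured, with a CA1 median deviation of -1.55 in KO replicate 3, 0.05 and 0.01 in the other KO samples and -0.01 to 0.06 in the WT samples. The dentate median deviation was -0.50 to -0.24 in KO samples and -0.19 to 0.19 in WT samples. In bulk tissue, fewer cells of a type and less RNA per cell cannot be told apart.

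Among all genes, 1234 of 12903 (9.56%) had every KO array above every WT array, and the 6 genes met this by choice. Every KO array lay below every WT array for 920 genes (7.13%). No gene passed an adjusted p of 0.05 as higher in KO in limma (0 of 12903, 0%, with 605 with an unadjusted p below 0.05), so none of the 6 did, and 8 genes (0.062%) passed as lower. Without KO replicate 3, 13 genes passed as higher and 40 as lower. The 6 differences ran from 0.74 for Tril to 1.99 for G530011O06Rik, all beyond a fold of 1.5. Among all 12903 genes, 535 were higher in KO by at least that fold and 262 were lower. The 6 genes had been picked on this contrast. The gap between the lowest KO and the highest WT array was smallest for Plppr1 (0.52) and widest for G530011O06Rik (1.26). Just outside the rule lay Dynlrb2, a dynein light chain gene of motile cilia, with 9.12, 8.76 and 9.50 in KO against 7.99, 8.77 and 7.54 in WT. Gap43, a growth cone gene, also missed it by 0.01. Of all genes with a difference in the range of the 6, 168 met the rule and 128 did not.

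**Figure D1:**
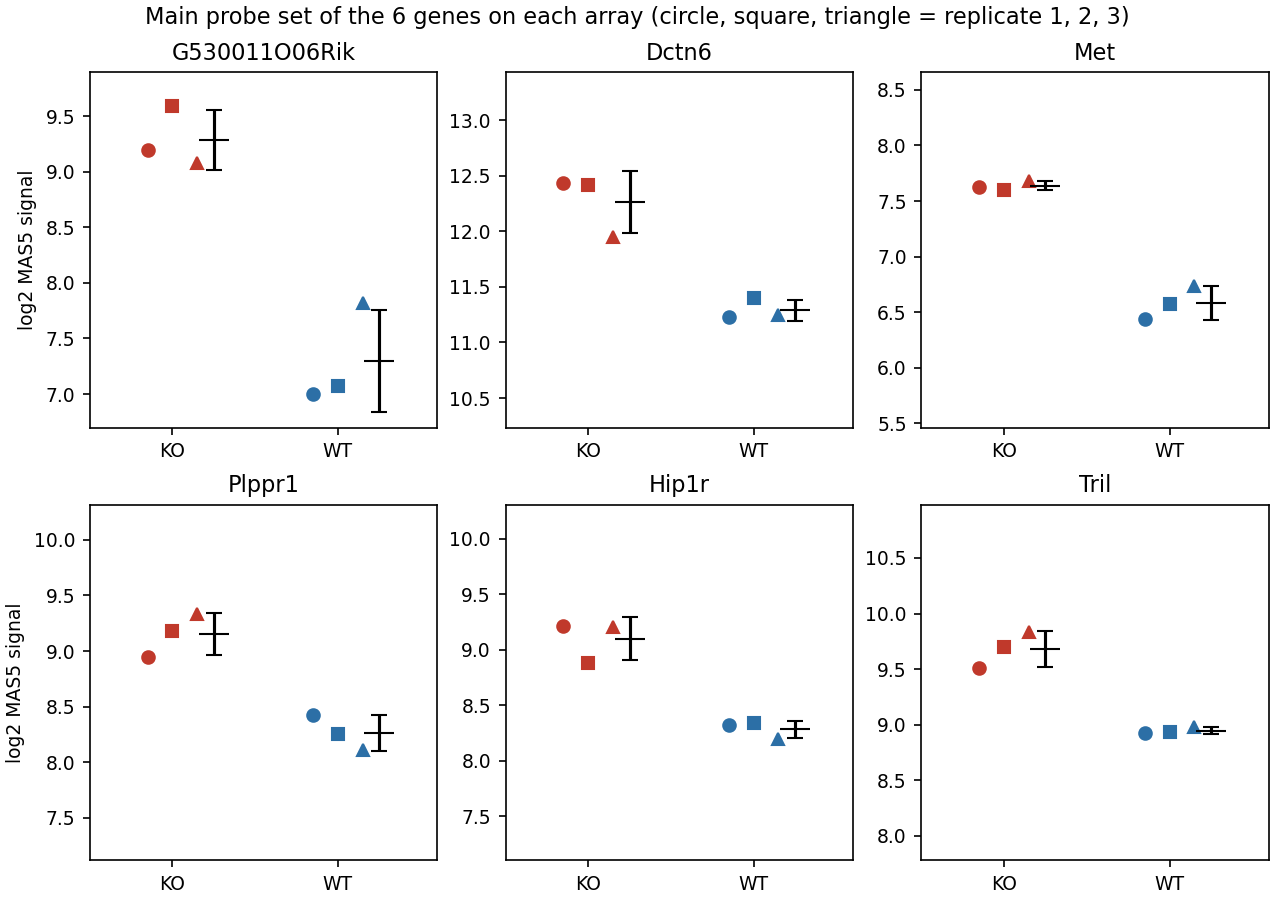
Log2 MAS5 signal (y axis) of the main probe set of each of the 6 genes on the 3 KO and 3 WT arrays, with the mean and SD (n = 3) of each group as a bar. Each panel spans the same number of log2 units and starts above 0. The KO points of Met lie within 0.08 of each other and the WT points of Tril within 0.05, while G530011O06Rik has the widest step between the groups.

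G530011O06Rik had the widest step of the 6 genes. It is read by a single probe set (1440342_at), so no second probe set can be set against it. Its signal was 9.19, 9.59 and 9.08 in KO hippocampus, against 7.001, 7.07 and 7.82 in WT hippocampus. Even the highest WT array, replicate 3, lay well below the lowest KO array. The means were 9.29 ± 0.27 in KO and 7.30 ± 0.46 in WT (SD, n = 3 each), a difference of 1.99 or a fold of 3.97 on the linear scale. Without KO replicate 3, the array with the lowest KO signal of this gene, the difference was 2.09.

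This RNA is annotated near the end of the X chromosome, in the neighbourhood of the pseudoautosomal region that X and Y share. RefSeq (GRCm38.p6) lists a start for it on both sex chromosomes, and 292 of 296 aligned bases (98.6%) of the 2 promoter windows were identical. Whether the signal came from the X or the Y copy was not analysed. The upstream stretch of the X copy, chrX:169978918-169979167 on the minus strand, is shown because it differs so much in composition from the promoters of the coding genes. Capitals mark CG dinucleotides.
G530011O06Rik: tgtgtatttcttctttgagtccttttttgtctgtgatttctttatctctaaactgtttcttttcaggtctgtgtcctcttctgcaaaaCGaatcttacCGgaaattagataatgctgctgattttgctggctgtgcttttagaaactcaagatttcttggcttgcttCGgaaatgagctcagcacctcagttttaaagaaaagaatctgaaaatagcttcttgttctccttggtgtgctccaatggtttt
The stretch holds 3 CG dinucleotides in 250 bases, and the full window of 300 bases, which runs past the start, holds 5 at a GC content of 41.3%. Over the 32851 RefSeq promoter windows the median was 7, and 62.0% held 5 or more.

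Of the annotated neighbours, Erdr1 is the next gene after G530011O06Rik and was the only one of the nearest 4 with a kept probe set. Erdr1 (erythroid differentiation regulator 1) is annotated there as a transcribed pseudogene. Its bright probe set, whose suffix (_x_at) marks probes that may also bind other transcripts, had 12.33, 12.24 and 12.51 in KO samples, against 11.33, 11.38 and 11.73 in WT samples. The difference was 0.88 and did not pass (adjusted p = 0.161 from limma). A dimmer Erdr1 probe set had 6.56, 6.08 and 6.31 in KO samples against 4.94, 5.61 and 6.00 in WT samples, without overlap but with a gap of only 0.07. On both probe sets every KO array thus lay above every WT array, which was the case for 7.37% of all kept probe sets. The dimmer one was above the filter level on 4 arrays only, and not on WT replicates 1 and 2.

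The annotated span of Mid1, a gene for a microtubule-associated ubiquitin ligase, contains G530011O06Rik on the opposite strand. It was chosen for description after its values had been seen. Its bright probe set had 6.04, 6.21 and 8.89 in KO samples, against 8.19, 8.15 and 7.93 in WT samples. KO replicates 1 and 2 were about 2 log2 units below WT, and KO replicate 3, the array with the highest thalamic markers, was above every WT array. The difference was -1.04 with all arrays and -1.96 without KO replicate 3. This probe set was above the filter level on 5 arrays only, and not on KO replicate 1. The other Mid1 probe sets lay below the filter level on all arrays and differed by -0.96 and -1.82, with overlapping groups. Which strand and which exons the probe sets of Mid1 and G530011O06Rik read was not analysed here. Signal of the gene and of its antisense partner therefore cannot be told apart.

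**Figure D2:**
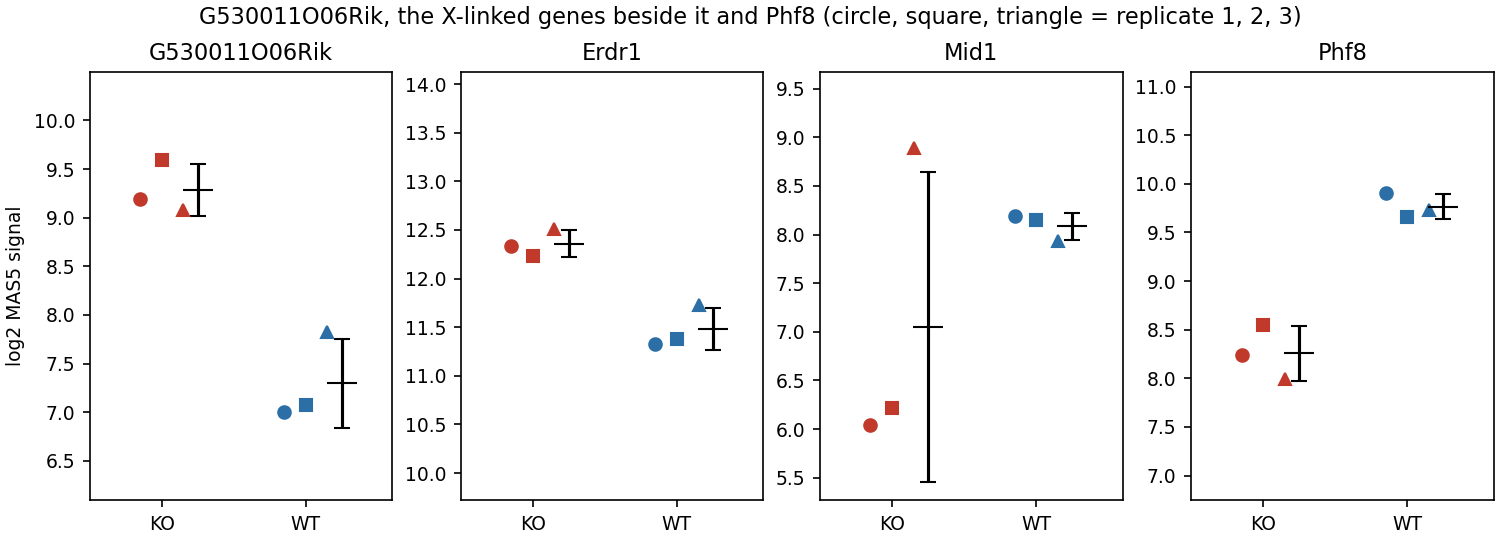
Log2 MAS5 signal (y axis) of the main probe sets of G530011O06Rik (annotated on X and Y), Erdr1, Mid1 and Phf8, all annotated on the X chromosome, on the 3 KO and 3 WT arrays, with the mean and SD (n = 3) as a bar. G530011O06Rik and Erdr1 lie higher and Phf8 lower on all KO arrays, and Mid1 is split, with KO replicates 1 and 2 at 6.04 and 6.21 and KO replicate 3 at 8.89.

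For the 5 coding genes the other probe sets of the same gene gave a mixed answer. Of 8 further probe sets, 6 had a higher mean in KO and 2 a lower one. In only 1 of the 8, a Plppr1 probe set, was every KO array above every WT array, and in 1, a Met probe set, every KO array was below every WT array. Of the 5 that passed the filter, 4 had a higher mean in KO and 1 showed no overlap between the groups. Among all genes whose main probe set met the same rule, 68.8% of 828 other kept probe sets had a higher mean in KO, and 18.7% had every KO array above every WT array. Over all 27408 kept probe sets, the share with every KO array above every WT array was 7.37%. The share of them with a higher mean in KO was not counted, so 68.8% has no such background here. All these shares come from the same arrays as the rule and are given as description.

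**Figure D3:**
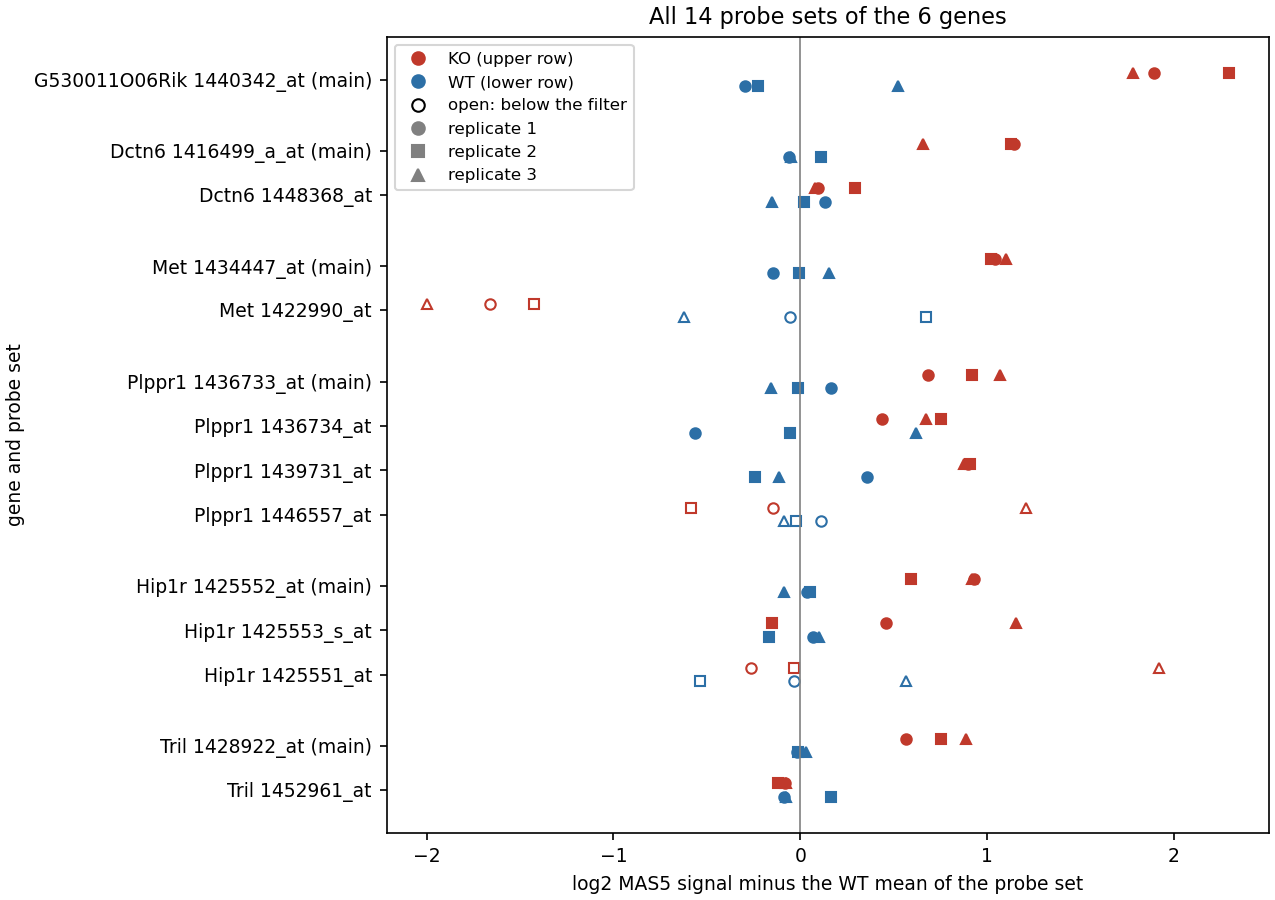
Log2 MAS5 signal of all 14 probe sets minus the WT mean of the same probe set (x axis), with the 3 KO arrays in the upper and the 3 WT arrays in the lower row of each probe set and open symbols for probe sets below the filter. Plppr1 has 2 probe sets with separate groups, while the KO and WT points of the second probe sets of Dctn6 and Tril overlap near 0.

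Dctn6 encodes the p27 subunit at the pointed end of the dynactin filament. Its main probe set (1416499_a_at, whose suffix marks probes shared by transcript variants of a gene) had signals of 12.43, 12.42 and 11.95 in KO hippocampus, against 11.23, 11.40 and 11.24 in WT hippocampus. KO replicate 3 was the lowest KO array here. The means were 12.27 ± 0.28 in KO and 11.29 ± 0.10 in WT (SD, n = 3 each), a difference of 0.97, or 1.13 without KO replicate 3. The second probe set (1448368_at), designed from the same reference transcript and bright as well, had 11.21, 11.41 and 11.19 in KO samples, against 11.25, 11.13 and 10.96 in WT samples. Its groups overlapped and its means differed by 0.16, close to the SD of 0.12 in KO and 0.14 in WT. The near doubling seen by the main probe set was thus not seen by the other one.

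None of the measured genes listed as working with Dctn6 passed in limma. Of 26 listed dynactin, dynein and dynein regulator genes, 22 were measured, 8 with a higher and 14 with a lower mean in KO. In limma 1 higher and 1 lower had an unadjusted p below 0.05, and the median difference was -0.06 against 0.01 for all genes. Dctn5, the p25 subunit that pairs with p27, averaged 10.89 ± 0.17 in KO and 10.97 ± 0.12 in WT on its bright probe set (SD, n = 3 each). A second kept Dctn5 probe set differed by 0.17, or by -0.01 without KO replicate 3, with overlapping groups. Dctn4, the p62 subunit of the same end, differed by -0.07. Ndel1, a dynein regulator, had the smallest p of the list, with 11.62, 11.62 and 11.69 in KO against 11.97, 11.89 and 11.97 in WT (adjusted p = 0.563 from limma). Dynlrb1, a dynein light chain, was higher on every KO array, with 12.51, 12.57 and 12.72 in KO against 12.35, 12.43 and 12.39 in WT, a difference of 0.21 (adjusted p = 0.659 from limma). Besides this 1 gene with every KO array above every WT array, 4 genes of the list, Ndel1 and the light chain gene Dynll1 (-0.12) among them, had every KO array below. Over all genes, 9.56% had every KO array above and 7.13% had every KO array below.

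Hip1r binds clathrin light chains and actin filaments and so acts where endocytic vesicles are pulled in. The main probe set (1425552_at) had 9.22, 8.88 and 9.21 in KO samples, against 8.32, 8.34 and 8.20 in WT samples. The WT arrays lay within 0.14 of each other, and KO replicate 2 was the lowest KO array. The means were 9.10 ± 0.19 in KO and 8.29 ± 0.08 in WT (SD, n = 3 each), a difference of 0.81, or 0.76 without KO replicate 3. A second kept probe set (1425553_s_at, whose suffix marks probes shared by transcripts of several genes) is designed from the same sequence and had 8.66, 8.05 and 9.36 in KO samples, against 8.27, 8.04 and 8.30 in WT samples. KO replicate 2 fell among the WT arrays there, and its difference of 0.49 became 0.15 without KO replicate 3. The third, dim probe set (1425551_at) had 7.54 in KO replicate 3 but only 5.36 and 5.59 in KO replicates 1 and 2, against 5.59, 5.09 and 6.19 in WT samples, so that its difference of 0.54 turned to -0.15 without KO replicate 3. Both secondary probe sets were highest in the array with the highest thalamic markers, and the part of that tissue in them was not tested.

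Several marker lists were on average higher in KO, like the main Hip1r probe set, while others were lower. Lowest were the erythrocyte markers, of which 4 of 7 were measured and 2 passed in limma as lower. Their median deviation from the WT mean was -3.38, -3.95 and -3.55 in KO replicates 1 to 3 and -0.04 to 0.08 in WT samples. Of 14 oligodendrocyte markers, 11 were measured, 8 of them with a higher mean in KO, and their median deviation from the WT mean was 0.22, 0.35 and 0.29 in KO replicates 1 to 3 and -0.13 to 0.06 in the WT samples. Mbp, the brightest of them, was lower on every KO array (-0.20, adjusted p = 0.586 from limma), and the summed linear signal of the list was 54714 to 63094 in KO and 54176 to 59111 in WT. The median deviation of ependymal markers was 0.59, 0.27 and 1.15 in KO replicates 1 to 3 and -0.21 to 0.35 in WT samples (8 of 9 with a higher mean), and that of markers of meninges and fibroblasts was 1.06, 0.47 and 0.23 in KO and -0.14 to 0.23 in WT samples (7 of 9). The part of these cell types in the differences of Hip1r and the other members was not tested. Among 32 listed genes of clathrin-mediated endocytosis, 30 were measured, 10 with a higher and 20 with a lower mean, and none passed in limma (0 with an unadjusted p below 0.05, median difference -0.03 against 0.01 for all genes). The paralog Hip1 averaged 8.54 ± 0.21 in KO and 8.64 ± 0.14 in WT on its bright probe set (SD, n = 3 each). A second kept Hip1 probe set differed by 0.44, or by -0.18 without KO replicate 3, with overlapping groups. The clathrin light chain genes Clta and Cltb, which encode the proteins that Hip1r binds, differed by -0.01 and 0.32, and Cltb was highest in KO replicate 3 (11.22) while KO replicates 1 and 2 (10.46 and 9.90) lay on either side of the WT samples (10.16 to 10.25). Dnm3, a dynamin gene, differed by 0.43 and Dnm1, the main neuronal dynamin gene, by -0.13, and neither passed (adjusted p = 0.659 and 0.673 from limma). Eps15 and Amph, which encode adaptors of the coated pit, differed by -0.24 and -0.25 with overlapping groups.

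Met was the tightest of the 6 genes within KO. Its main probe set (1434447_at) had signals of 7.63, 7.60 and 7.68 in KO hippocampus, against 6.43, 6.58 and 6.74 in WT hippocampus. All KO arrays lay within 0.08 of each other and above the WT arrays, which spread over 0.30. The means were 7.64 ± 0.04 in KO and 6.58 ± 0.15 in WT (SD, n = 3 each), a difference of 1.05, or 1.03 without KO replicate 3. The other probe set (1422990_at) went the opposite way, with 2.46, 2.70 and 2.13 in KO samples, against 4.07, 4.80 and 3.51 in WT samples. Every KO array was lower there, but all 6 values lie below the filter level, where the size of a log2 difference is sensitive to any constant in the signal. It was -1.70, and -0.67 once 16 signal units had been added to every signal. The added constant changed the main difference to 0.94.

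The ligand gene Hgf had no kept probe set, and its brightest one had 4.94, 5.90 and 5.52 in KO samples, against 5.60, 6.37 and 5.83 in WT samples. Of 25 listed genes of HGF processing and MET signalling, 18 were measured, 8 with a higher and 10 with a lower mean in KO. None passed in limma (1 higher and 0 lower with an unadjusted p below 0.05), and the median difference was -0.06. That 1 gene was Gab1, the docking protein that the activated MET receptor recruits. It had 9.92, 10.20 and 10.11 in KO samples, against 9.65, 9.79 and 9.62 in WT samples, a difference of 0.39 without overlap (adjusted p = 0.589 from limma). The kinase gene Src (-0.66), the phosphatase gene Ptprj (-0.60) and the exchange factor gene Sos1 (-0.31) had the next smallest p, and each was lowest in KO replicate 3 and lower than every WT array on all KO arrays (adjusted p = 0.659, 0.665 and 0.673 from limma). In this list 1 gene had every KO array above every WT array and 3 had every KO array below. Over all genes these shares were 9.56% and 7.13%. The only kept neighbour of Met among the nearest 4 annotated genes, the actin capping gene Capza2, differed by -0.21 (adjusted p = 0.731 from limma). The kept neighbours of Hip1r, Denr and Ccdc62, each differed by 0.05, and that of Tril, Gm16499, by 0.03. No neighbour was kept for Dctn6 or Plppr1.

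Plppr1 was the only member with a second probe set on which every KO array lay above every WT array. The main one (1436733_at) had 8.95, 9.18 and 9.33 in KO samples, against 8.43, 8.25 and 8.11 in WT samples. KO replicate 3 was highest, and KO replicate 1 came closest to WT. The means were 9.15 ± 0.19 in KO and 8.26 ± 0.16 in WT (SD, n = 3 each), a difference of 0.89, or 0.80 without KO replicate 3. A dimmer probe set (1439731_at) had 7.16, 7.17 and 7.14 in KO samples, against 6.62, 6.02 and 6.15 in WT samples, again a difference of 0.89 and again without overlap. On that probe set the KO arrays agreed within 0.03 and KO replicate 3 did not stand out. The third (1436734_at) had 6.93, 7.25 and 7.17 in KO samples, against 5.93, 6.44 and 7.12 in WT samples. Its difference was 0.62 and its groups overlapped through WT replicate 3 alone. Single WT arrays moved this value, to 0.34 without WT replicate 1 and 0.93 without WT replicate 3. The fourth (1446557_at) lay below the filter on all arrays and had 4.09, 3.65 and 5.45 in KO samples, against 4.35, 4.22 and 4.15 in WT samples. Its difference of 0.16 rested on KO replicate 3 and was -0.37 without it.

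The upstream stretch of Plppr1, chr4:49059212-49059461 on the plus strand (GRCm38.p6, RefSeq), is shown as the promoter of the member with a second probe set that met the rule. CG dinucleotides are in capitals.
Plppr1: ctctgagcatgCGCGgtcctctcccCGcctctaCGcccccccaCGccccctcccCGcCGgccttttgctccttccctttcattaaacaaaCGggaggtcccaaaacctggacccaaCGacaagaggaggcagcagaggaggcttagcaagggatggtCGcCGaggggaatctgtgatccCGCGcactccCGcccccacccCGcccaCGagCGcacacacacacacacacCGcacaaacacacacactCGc
With 19 CG dinucleotides in 250 bases it is the CpG-rich kind, unlike the stretch of G530011O06Rik with 3.

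Among the relatives of Plppr1 the values went both ways. Plppr2 averaged 9.91 ± 0.47 in KO and 10.48 ± 0.12 in WT (SD, n = 3 each), a difference of -0.57 (adjusted p = 0.659 from limma) with KO replicate 3 lowest at 9.41. Plppr3 had 6.90, 6.64 and 9.45 in KO samples, against 7.52, 7.19 and 7.02 in WT samples, so that only KO replicate 3 was high. Plppr4, known at excitatory synapses, differed by 0.07 on its bright probe set and by -0.38 on another, and the 3 kept probe sets of Plppr5 by -0.04, -0.39 and 0.11. Of 18 listed genes of this family, the lipid phosphate phosphatases and the receptors and synthesis of lysophosphatidic acid (LPA), 14 were measured, 9 with a higher and 5 with a lower mean, and none passed in limma (0 higher and 1 lower with an unadjusted p below 0.05). The list median was 0.18 against 0.01 for all genes, but 0.11 without KO replicate 3, 0.08 without WT replicate 2 and 0.05 with array weights. Plpp1 and Plpp2, which encode phosphatases of lipid phosphates, had every KO array above every WT array, with differences of 0.28 and 0.47 (adjusted p = 0.659 and 0.669 from limma). For Plpp2 the lowest KO array (8.08) was close to the highest WT array (8.03). These were the only 2 such genes of the list, and 0 had every KO array below. Over all genes these shares were 9.56% and 7.13%. Plpp3, another such phosphatase gene, differed by 0.29 with overlapping groups (adjusted p = 0.670 from limma).

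Tril had the smallest step and the tightest WT values. The main probe set (1428922_at) had 9.51, 9.70 and 9.83 in KO hippocampus, against 8.93, 8.93 and 8.98 in WT hippocampus. The WT arrays lay within 0.05 of each other, and KO replicate 3 was the highest KO array. The means were 9.68 ± 0.16 in KO and 8.95 ± 0.03 in WT (SD, n = 3 each), a difference of 0.74, or 0.66 without KO replicate 3. The other probe set (1452961_at), designed from the same cDNA and of like brightness, had 8.59, 8.55 and 8.59 in KO samples, against 8.58, 8.83 and 8.59 in WT samples. There the groups overlapped, with a difference of -0.09, so the step was seen by 1 of the 2 Tril probe sets only.

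Markers of astrocytes, in which Tril is expressed, had a median deviation of -0.05, 0.05 and 0.17 in KO replicates 1 to 3 and of -0.03 to -0.01 in WT samples (12 of 12 measured, 7 with a higher mean). Their summed linear signal was 59545 to 67550 in KO and 60216 to 61713 in WT, and their part in the Tril difference was not tested. Of 26 listed genes of Toll-like receptor signalling, 18 were measured, 9 with a higher and 9 with a lower mean, and none passed in limma (0 higher and 2 lower with an unadjusted p below 0.05, median difference -0.03, or 0.05 without KO replicate 3). Tlr4 had no kept probe set. Tlr3, a receptor for double-stranded RNA, had 8.48, 8.79 and 7.92 in KO samples, against 8.28, 8.36 and 8.40 in WT samples, and its groups overlapped. Cd14, the coreceptor of TLR4, had 7.18, 7.05 and 7.08 in KO samples, against 7.48, 7.80 and 7.50 in WT samples, lower on every KO array (-0.49, adjusted p = 0.638 from limma). Hsp90b1, the chaperone that folds Toll-like receptors in the endoplasmic reticulum, was also lower on every KO array (-0.29, adjusted p = 0.586 from limma). In this list 3 genes had every KO array below every WT array and 0 had every KO array above. Over all genes these shares were 7.13% and 9.56%. Myd88 and Irak1, an adaptor and a kinase gene downstream of these receptors, differed by -0.42 and 0.45 with overlapping groups.

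The upstream stretch of Tril, chr6:53820826-53821075 on the minus strand (GRCm38.p6, RefSeq), is shown as the promoter of a gene whose bright probe sets gave different answers. CG dinucleotides are in capitals.
Tril: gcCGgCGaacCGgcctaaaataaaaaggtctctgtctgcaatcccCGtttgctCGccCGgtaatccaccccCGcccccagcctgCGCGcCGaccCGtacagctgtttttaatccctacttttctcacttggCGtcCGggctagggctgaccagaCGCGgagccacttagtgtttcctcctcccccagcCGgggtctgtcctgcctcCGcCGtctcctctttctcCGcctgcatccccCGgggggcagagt
A promoter window was matched for 5 of the 6 genes. In the full windows of 300 bases Met held 34 CG dinucleotides, Plppr1 29, Tril 26 and Hip1r 25, and 7.73%, 12.9%, 16.9% and 18.4% of all windows held as many. The GC box GGGCGG, searched on both strands, occurred 3 times in Met, 2 times in Plppr1, 4 times in Hip1r, 1 time in Tril and 0 times in G530011O06Rik, and 35.7% of all windows hold it. The E-box CACGTG occurred once, in Met (7.15% of windows), and neither the TATA box TATAAA (13.6%) nor the cAMP response element TGACGTCA (1.79%) was found. The 5 windows thus fall into 4 rich in CpG and 1 that is not, and a match is a description of letters only.

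**Figure D4:**
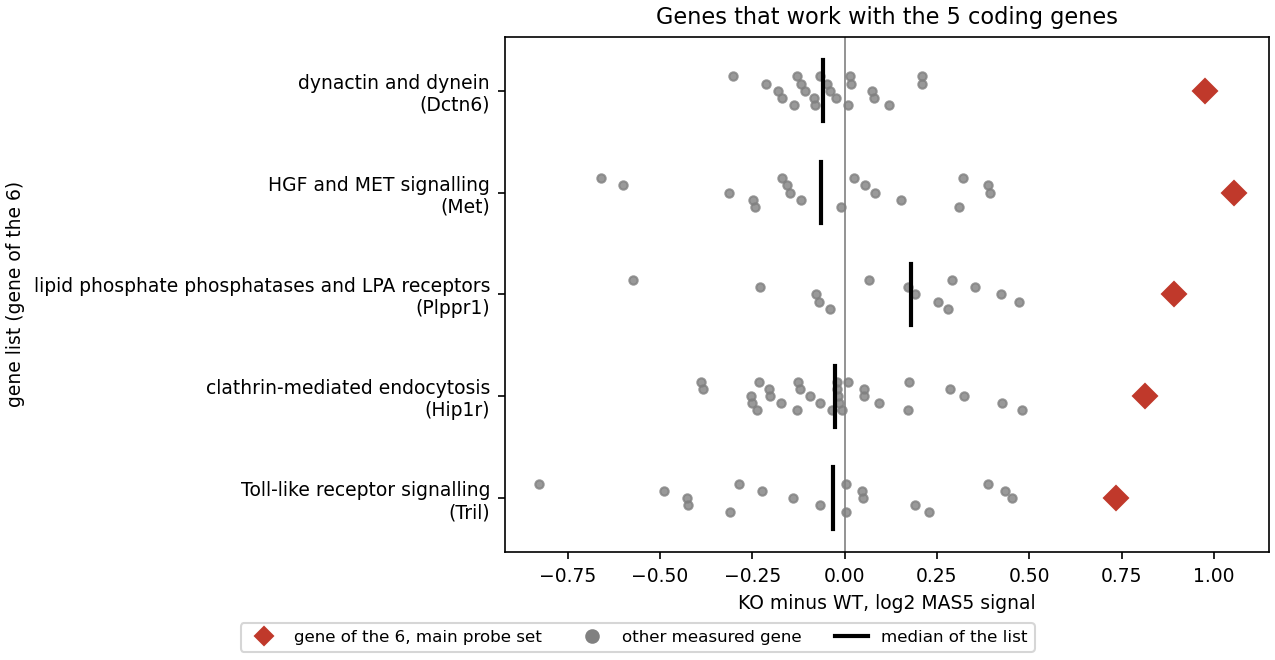
KO minus WT difference of log2 MAS5 signal (x axis) for the measured genes of the 5 lists (grey), the median of each list (black bar) and the gene of the 6 that belongs to it (red), which was chosen by this difference. The list medians run from -0.06 to 0.18, and no grey gene passed an adjusted p of 0.05.

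Over the 5 lists, 127 genes were listed and 102 measured, and none passed in limma with all arrays. At an unadjusted p under 0.05 there were 2 higher and 4 lower, 5.88% of those measured, against 7.48% of all genes.

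The genes whose signal ran most like that of a member over the 6 arrays were different for each member. Pearson's r over 6 arrays, a description over arrays that share the step used to pick the members, was highest with Bms1 for G530011O06Rik (0.997), followed by Rab33a and Myo16. It was highest with Sox4 for Dctn6 (0.998), followed by Zfp945 and Ptgr2, and with Qars for Met (0.994), followed by Metrnl and Tmeff2. None of these 9 genes had a difference as large as the member it resembled, the widest being that of Metrnl (0.78). For Plppr1 the most alike was Endog (0.994), then Slc16a14 and Btf3, and for Hip1r Maged2 (0.989), then Higd2a and 2810021J22Rik. For Tril it was Gm17396 (0.995), then Myo10 and Slc30a10. Of these, Slc30a10 differed by 0.77, which was more than Tril itself (0.74). Between 50 and 101 genes reached an r of 0.95 with a member.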

How the data were processed

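Hippocampal RNA was labelled with biotin and hybridised to Affymetrix mouse arrays. The authors deposited log2 values of MAS5 signals, scaled on each array (2% trimmed mean signal 497.5 to 498.2), and the submitters list MAS5 and affy with no version given. Detection calls were not used here, and the paper's filter on Absent calls was replaced by the filter at the 40th percentile. Gene symbols came from the platform annotation (34945 probe sets with 1 symbol, 932 with several, 9160 not listed), and all 6 members matched RefSeq GRCm38.p6.

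KO minus WT was fitted over 12903 genes with limma 3.58.1 in R 4.3.3 (lmFit, eBayes with trend), with Benjamini-Hochberg adjustment, and the fit was tested on simulated data. An exact permutation test of 3 against 3 arrays cannot go below p = 0.1. Promoter windows were scanned with Python 3.11.15 and aligned with Biopython 1.88.

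The members and lists were chosen with earlier results of these data known. Named are the members, Phf8, up to 4 genes per list with the smallest p, direct partners, annotated neighbours, the 3 most alike genes and markers beside a result. Dynlrb2 and Gap43 are named as the genes just outside the rule, and Mid1, Cltb, Clta and Dctn4 were added after their values were seen. Precision is limited by the number of arrays. The alternatives are given in the closing section.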

Additional observations from a re-analysis of the deposited data

How the results depend on the processing

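The 6 main probe sets had every KO array above every WT array with all arrays, by choice, and under each of the 10 alternatives run on them. Leaving out an array or adding a constant to every signal cannot undo such a separation. For those alternatives this outcome was therefore fixed in advance. Their differences stayed within 1.84 to 2.25 (G530011O06Rik), 0.57 to 1.13 (Dctn6), 0.94 to 1.13 (Met), 0.80 to 0.99 (Plppr1), 0.65 to 0.92 (Hip1r) and 0.32 to 0.82 (Tril). The low ends of Dctn6, Hip1r and Tril came from averaging all kept probe sets of a gene. Of the other probe sets, the dim ones of Plppr1 and Hip1r changed sign without KO replicate 3 (-0.37 and -0.15). In all, 198 of 212 differences and list medians moved by less than 1 SD. The medians for MET and Toll-like receptor signalling took both signs (-0.15 to 0.03 and -0.16 to 0.09), and that for lipid phosphatases ran from 0.05 to 0.22.

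The count of 8 genes passing in limma was 0 without the trend in eBayes and 115 with array weights (estimated gene by gene, since the default estimate did not converge), where 55 were higher. It ran from 0 to 53 when 1 array was left out, with 53 without KO replicate 3, 0 without KO replicate 2, WT replicate 1 or WT replicate 2 and 1 without either remaining array. With the replicate number as a block it was 4. Samples with equal numbers had correlations of -0.04, 0.07 and 0.13, and the other pairs ran from -0.16 to 0.20. With 3 arrays per group these values cannot tell whether the samples were paired. Genes with every KO above every WT array numbered 1234, but 822 (6.37%) after median centring, and 1524 to 2424 with 1 array left out, where fewer arrays make the rule easier to meet. Such probe sets numbered 2020, but 1370 after median centring, 1414 with the filter at the 60th percentile, 3037 with no filter and 2635 to 4688 with 1 array left out. No list gene passed under any of the 16 alternatives.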
